A study of Mus musculus with 8 samples.

Results

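The comparison described here sets mouse embryonic kidney at stage E18.5 against the same organ at E16.5. It used 4 of the study's 8 RNA-seq libraries: the E16.5 CPF, E18.5 CPF, E16.5 DMSO and E18.5 DMSO libraries, chosen by the stage and agent in their labels. All came from the outbred ICR stock, from dams aged 8 weeks. In the CPF group the dams had been given chlorpyrifos, an organophosphate insecticide, at 5 mg per kg under the skin on each day of gestation from day 7.5 to day 11.5. In the DMSO group they had been given the solvent in the same volume. The agent was used as a pairing term, so each gene has a difference of E18.5 minus E16.5 within CPF and another within DMSO, and genes with the same sign in both are reported. Each combination of stage and agent is 1 library, and the sources used here do not say how many embryos or litters it holds. No control without an injection entered the comparison.

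In late gestation the kidney makes nephrons and matures them at the same time. At the outer edge, progenitor cells marked by Six2 sit around the tips of the branching ureteric tree and commit, through the renal vesicle and the S-shaped body, to podocytes, proximal tubule, loop of Henle and distal tubule. Deeper in, older nephrons acquire the carriers and enzymes of reabsorption, and the ureteric tree becomes collecting duct and, further down, urothelium.

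The values are TPM per gene, which sum to 1000000 in each library. Kidney genes were present in all 4 libraries: Wt1 read 76 then 107 TPM with CPF and 104 then 69.9 TPM with DMSO (each pair gives E16.5 then E18.5), Pax8 79.7 then 143 with CPF and 71.8 then 50 with DMSO, and the endocytic receptor Lrp2 83.1 then 1197 with CPF and 106 then 211 with DMSO. Umod, a marker of the loop of Henle, read at most 0.0398 TPM, and the ureteric tip gene Wnt11 at most 0.346 TPM. Umod, Slc12a3 and Wnt11 have several RefSeq transcripts, and such genes had a median of 0.142 TPM against 3.64 TPM for genes with 1 transcript, so their low values are listed values only. Gapdh, a glycolytic gene of all cells that also has several transcripts, read at most 0.926 TPM. Libraries of both agents stood apart. The RNase components Rpph1 and Rmrp took 31.0% of the TPM at E16.5 and 41.8% at E18.5 in DMSO, against 21.8 and 21.3% in CPF, which lowers all other genes in the E18.5 DMSO library. The E16.5 CPF library had the highest sum of the 4 for 10 of 12 marker lists of other organs and cell types, and 9 of the 12 were lower at E18.5 in both agents. Its 21 liver markers summed to 6667 TPM, against 1190, 79.9 and 50.3 TPM in the E18.5 CPF, E16.5 DMSO and E18.5 DMSO libraries. Its 22 pancreas and gut markers summed to 2332 TPM, against 144, 58.5 and 62.1 TPM. The lung gene Sftpc, which has 1 transcript, read at most 0.457 TPM in the 4 libraries. The adrenal gene Cyp11a1 read 108 then 1.01 TPM with CPF and 0.648 then 0.137 TPM with DMSO. In bulk RNA, fewer cells of a type and less RNA per cell cannot be told apart.

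**Figure D1:**
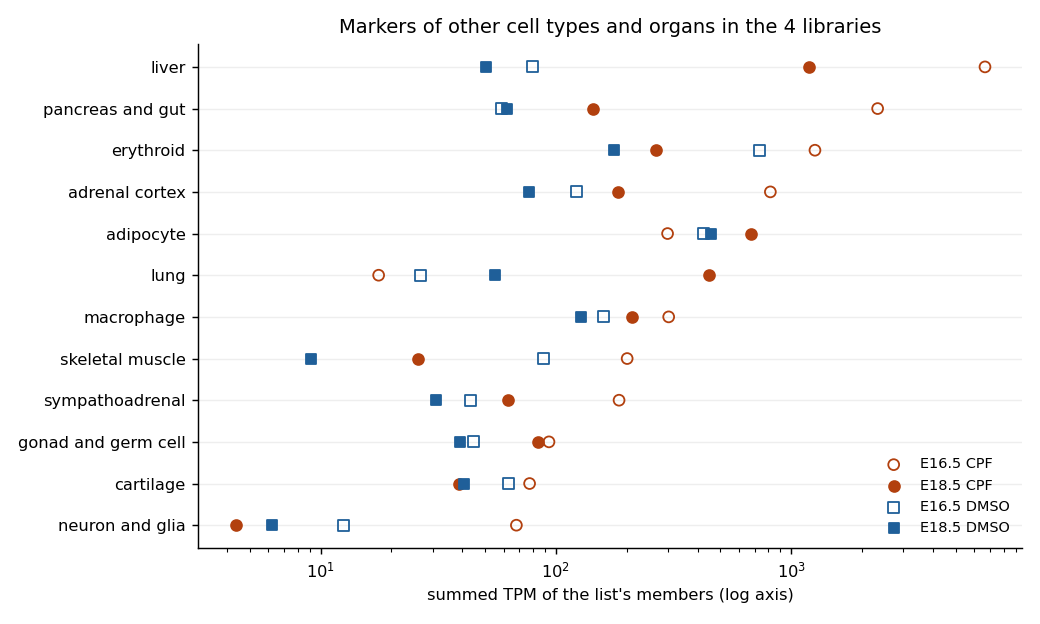
Summed TPM (log axis) of the marker genes of other organs and cell types in the 4 libraries, with open symbols for E16.5 and filled symbols for E18.5, circles for CPF and squares for DMSO. The E16.5 CPF library has the highest liver and pancreas sums (6667 and 2332 TPM), and the skeletal muscle and erythroid sums are lower at E18.5 in both agents.

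Of 13677 genes tested, 1513 were higher at E18.5 in both agents (11.1%) and 5234 were lower in both (38.3%). The median gene differed by 0.06 in CPF and by -0.33 in DMSO on the log2(TPM + 1) scale, which is used for every difference below and understates the change of low genes. With each library scaled to its coding transcripts the medians were 0.05 and -0.13, and 2861 genes were higher and 4392 lower in both, so the share of higher genes among those of 1 sign went from 22.4 to 39.4%. Signs are therefore also given relative to these medians. Relative to them, 3704 genes (27.1%) lay above in both agents and 3704 below. A further 5926 genes were higher in CPF and lower in DMSO, and 823 the reverse. Both E18.5 libraries lay above both E16.5 libraries in 714 of the 13677 genes (5.22%) and below both in 3112 (22.8%).

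A 2-fold difference, with a mean of at least 5 TPM over the 4 libraries, was met by 79 of 9571 genes upward in both agents (0.825%) and by 71 downward (0.742%). Of the 79, 71 had the larger difference in CPF, as had 52 of the 71 lower genes. A limma fit over all 8 libraries with stage and agent as terms called 13 genes at an adjusted p under 0.05 with the same sign in both agents. These were 8 higher genes (0.0585%), among them Kap, Miox, Acmsd, Aqp2, Slc7a12, Fam25c and Pvalb, and 5 lower genes (0.0366%), namely Actc1, Myl4, Myh3, the small nucleolar RNA AF357425 and the microRNA gene Mir7003. At an unadjusted p under 0.05 there were 904. The p-values measure how the CPF minus DMSO difference varied between stages, not the spread between animals. The calls leaned on single libraries. Without the E16.5 CPF library 1 of the 13 (Kap) stayed under 0.05 in limma, without the E18.5 CPF library 2 (Kap and Actc1), without the E16.5 DMSO library 12, and without the E18.5 DMSO library all 13. With libraries scaled to coding transcripts or quantile normalized, Kap and Actc1 passed.

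**Figure D2:**
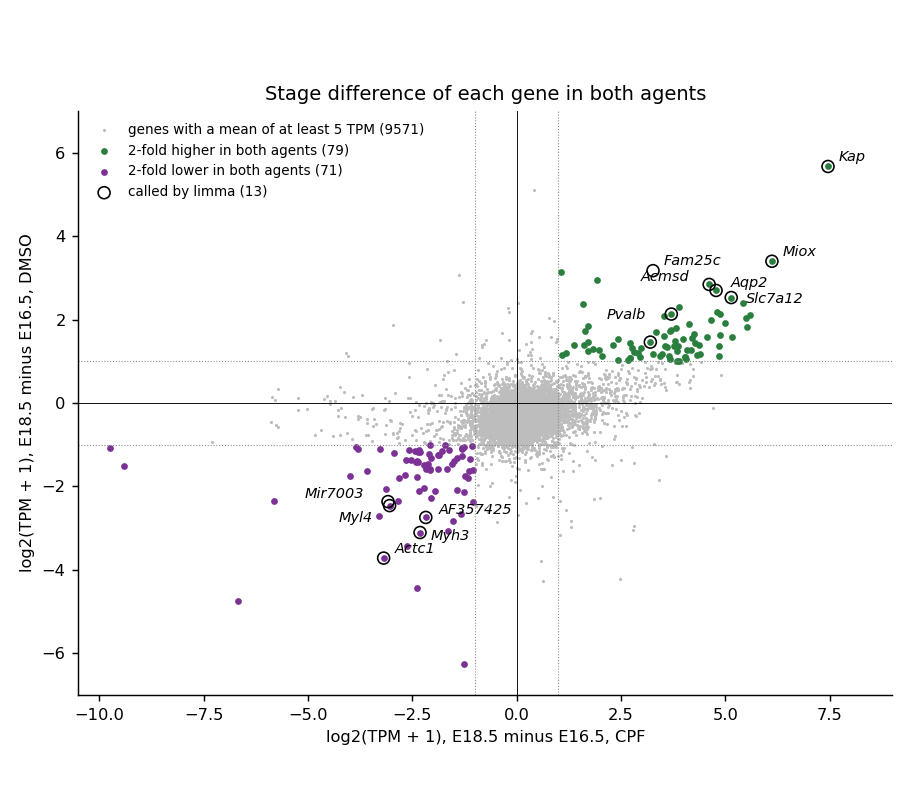
Difference of E18.5 minus E16.5 on the log2(TPM + 1) scale for each gene with a mean of at least 5 TPM, CPF on the x axis and DMSO on the y axis, with dotted lines at a 2-fold difference. The 79 genes that are 2-fold higher and the 71 that are 2-fold lower in both agents are coloured, and the 13 genes called by limma are circled (12 labelled), 2 of them with a mean under 5 TPM.

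The genes that rose include enzymes and carriers of the proximal tubule and the water channel of the collecting duct. Kap, the androgen-regulated protein of the kidney's proximal tubule, was listed at 0 TPM at E16.5 in CPF and at 0.223 in DMSO, and at 175 and 61.1 TPM at E18.5. It rose by 6.56 ± 0.49 (SE; limma adjusted p 0.000139). At E12.5 and E14.5 it did not pass 0.326 TPM, so the E18.5 libraries alone carry it. Kap and Pvalb passed the filter of 1 TPM in 2 libraries only through the E18.5 libraries where they are high, so each had to differ to be tested, and their p-values are not independent of that. Without a filter the limma adjusted p of Kap was 0.0634. Miox, the oxygenase that opens the ring of myo-inositol in proximal tubule, went from 1.95 to 203 TPM in CPF and from 2.53 to 36.1 TPM in DMSO, or 104-fold in CPF and 14.3-fold in DMSO (limma 4.75 ± 0.61, adjusted p 0.0180). Acmsd, which steers the breakdown of tryptophan away from NAD, went from 2.54 to 85.5 TPM in CPF and from 1.53 to 17.1 TPM in DMSO (3.72 ± 0.50, adjusted p 0.0161). In each of these 3 genes both E18.5 libraries lay above both E16.5 libraries, as in 5.22% of all tested genes, and the E18.5 CPF value was the highest. Genes called or past 2-fold were picked by the differences between these same libraries, so this separation, here and below, is not added support.

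Slc7a12, an amino acid carrier, went from 3.71 to 165 TPM in CPF and from 11.8 to 72.4 TPM in DMSO (limma 3.83 ± 0.55, adjusted p 0.0291). Aqp2, the vasopressin-regulated water channel of principal cells, went from 4.47 to 149 TPM in CPF and from 5.67 to 42.2 TPM in DMSO (3.74 ± 0.51, adjusted p 0.0161). For these 2 genes also both E18.5 libraries lay above both E16.5 libraries. Pvalb, the calcium-binding parvalbumin of the distal convoluted tubule, went from 0.541 to 19.1 TPM in CPF and from 0.524 to 5.67 TPM in DMSO, and its call was lost in limma without a filter, with a filter of 5 TPM and with a pseudocount of 0.1 or 5. Fam25c was listed at 0 TPM in both E16.5 libraries and at 8.61 and 8.00 TPM in the E18.5 CPF and DMSO libraries (3.22 ± 0.41, adjusted p 0.0159), and was the called higher gene whose E18.5 levels were closest between the agents among those named here. On GRCm38, Kap lies on chromosome 6 at 133849855 to 133853667, Miox on chromosome 15 at 89334473 to 89337007, Acmsd on chromosome 1 at 127729413 to 127767564, Aqp2 on chromosome 15 at 99579056 to 99584545 and Slc7a12 on chromosome 3 at 14480697 to 14505819.

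**Figure D3:**
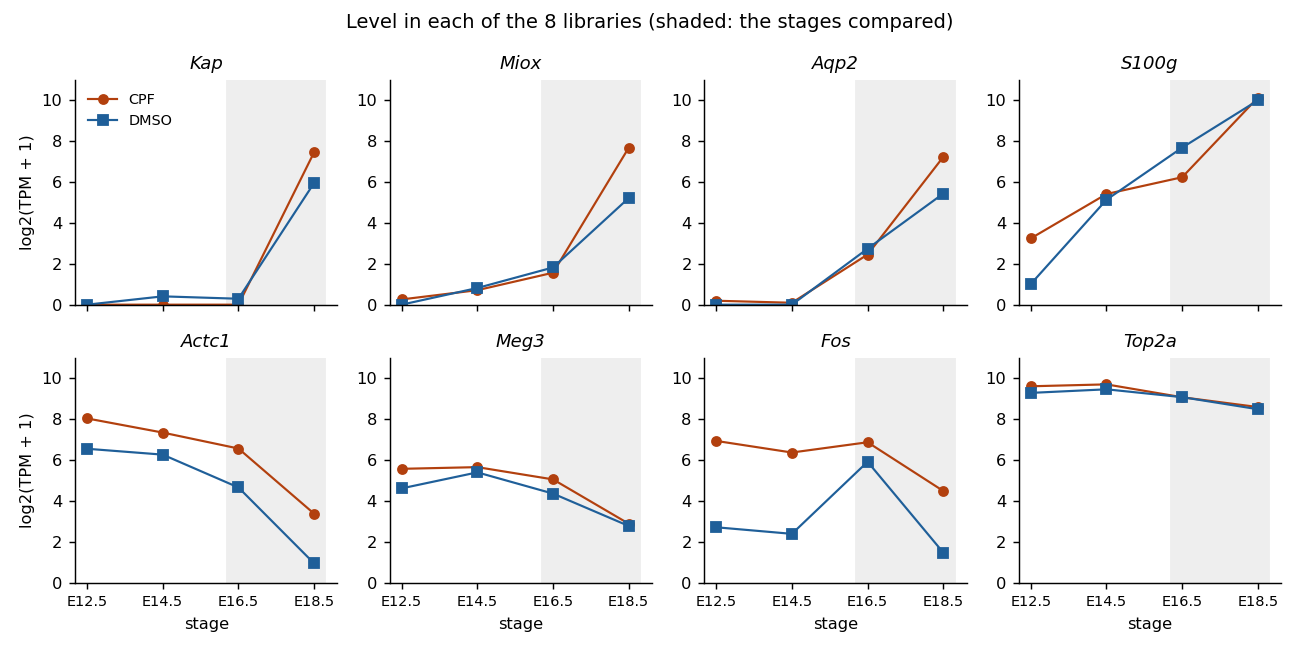
Level of 8 genes, as log2(TPM + 1), in the CPF (circles) and DMSO (squares) libraries at the 4 stages, each point 1 library, with the compared stages shaded. Kap is near 0 until E16.5 and reaches 175 and 61.1 TPM at E18.5, and Actc1 and Meg3 are lower at E18.5 than at E16.5 in both agents.

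Of the genes past 2-fold without a call, the highest E18.5 levels were those of S100g, calbindin-D9k, an intracellular calcium carrier. It read 74.2 then 1117 TPM with CPF and 204 then 1016 TPM with DMSO (limma adjusted p 0.420), and its E18.5 levels differed little between agents. Fbp1, the fructose bisphosphatase of gluconeogenesis, read 12.4 then 572 TPM with CPF and 13.4 then 75 TPM with DMSO (adjusted p 0.102). Cyp24a1, which inactivates vitamin D, read 0.222 then 54.1 TPM with CPF and 0.369 then 4.65 TPM with DMSO, and the epoxygenase Cyp2j5 3.47 then 213 with CPF and 10.1 then 47.2 with DMSO. The glucuronosyltransferase Ugt1a2 read 2.73 then 92.9 TPM with CPF and 4.86 then 22.4 TPM with DMSO. For all 5 genes both E18.5 libraries were above both E16.5 libraries, but limma gave no adjusted p under 0.05, and the difference was larger in CPF for each.

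Proximal tubule genes were higher at E18.5 as a group. Over 5 lists with 91 genes, 69 were tested, and 54 of these (78.3%, against 11.1% of all genes) were higher in both agents, 3 were lower in both and 12 differed in sign. Of the 57 with a mean of at least 5 TPM, 21 (36.8%) were 2-fold higher in both agents, where 0.825% of all such genes were, and 0 were 2-fold lower. The median difference was 2.96 in CPF and 0.53 in DMSO, or 2.90 and 0.86 above the median of all genes, and it was larger in CPF for 64 of the 69. With coding scaling 56 were higher in both, against 2861 of all 13677 tested genes. Kap and Miox were among the 3 called. A gene can pass the filter on low values through its E18.5 libraries alone, so these counts describe the tested members.

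By role, the organ's carriers for organic ions had the largest list median in CPF; the medians were 3.81 in CPF and 0.51 in DMSO, with 12 of 13 tested members higher in both agents and 6 past 2-fold. Slc22a6, which takes up organic anions such as urate and many drugs from blood, read 7.90 then 172 TPM with CPF and 7.69 then 22.4 TPM with DMSO. The steroid sulfate carrier Slc22a19 read 8.04 then 261 TPM with CPF and 8.63 then 41 TPM with DMSO, and the anion carrier Slco1a6 8.77 then 228 with CPF and 30.4 then 92.6 with DMSO. Among all tested genes, 8 of the 79 2-fold higher in both agents belong to the Slc22 family and 17 to the Slc carriers. The share of these families among all tested genes was not counted, so the counts do not show an excess. Abcg2, an efflux pump with the highest mean in the list, read 113 then 261 TPM with CPF and 138 then 116 TPM with DMSO, so it was higher at E18.5 in CPF and lower in DMSO.

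Carriers for phosphate, glucose and amino acids had medians of 2.47 in CPF and 0.34 in DMSO, with 10 of 14 tested members higher in both. Slc34a1, the main sodium phosphate carrier of the brush border, read 37.1 then 551 TPM with CPF and 41.9 then 83.9 TPM with DMSO. Slc3a1, the heavy chain of the cystine carrier, read 10.7 then 371 TPM with CPF and 19.3 then 75.7 TPM with DMSO and was past 2-fold in both agents. The glucose carrier Slc2a2 read 24.9 then 127 TPM with CPF and 13.2 then 36.3 TPM with DMSO. Slc5a2, the apical glucose carrier SGLT2, read 3.46 then 13.8 TPM with CPF and 2.52 then 2.40 TPM with DMSO, so the DMSO libraries did not share the difference seen in CPF. Slc7a9, Slc6a18 and Slc4a4 have several transcripts, were listed at or near 0 in all 4 libraries and were not tested.

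The uptake receptors Lrp2 (megalin) and Cubn (cubilin), which retrieve filtered protein, read 83.1 then 1197 TPM with CPF and 106 then 211 TPM with DMSO, and 17 then 266 with CPF and 24.1 then 48.6 with DMSO. Limma gave adjusted p of 0.507 and 0.240. Their adaptor Dab2 read 7.94 then 11.6 TPM with CPF and 8.20 then 4.02 TPM with DMSO, so it did not share the sign in DMSO. Of the brush border enzymes, which cleave peptides at the tubule surface, 7 of 10 tested were higher in both agents. The meprin subunit Mep1a read 55.9 then 608 TPM with CPF and 94.8 then 140.2 TPM with DMSO and gamma-glutamyl transferase Ggt1 75.6 then 639.8 with CPF and 63.8 then 106 with DMSO, while the aminopeptidase Enpep read 102 then 383 TPM with CPF and 113 then 105 TPM with DMSO, without a shared sign.

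Among enzymes of proximal tubule metabolism, 21 of 25 tested were higher in both agents and 9 were past 2-fold. Gatm, the first enzyme of creatine synthesis, read 28.2 then 323 TPM with CPF and 15.8 then 37.2 TPM with DMSO, and Hao2, a peroxisomal hydroxy acid oxidase, 24.2 then 347 with CPF and 33.9 then 96.5 with DMSO. The gluconeogenic enzymes G6pc and Pck1 read 0.181 then 32.1 TPM with CPF and 0.300 then 4.87 TPM with DMSO, and 6.28 then 215 with CPF and 10.1 then 16.7 with DMSO. The lower members were Hpd (7.56 then 4.03 with CPF and 0.299 then 0.135 with DMSO) and Bhmt (10.3 then 2.94 with CPF and 0.359 then 0.0882 with DMSO), 2 enzymes that liver also makes in large amounts, and the liver marker sum was also lower at E18.5 (6667 to 1190 TPM in CPF and 79.9 to 50.3 TPM in DMSO). The part of liver RNA in these values was not tested.

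The transcription factors that drive tubule genes did not share a sign between agents in any of 12 tested members, although 4 were higher in both with coding scaling. Of all 13677 tested genes, 5926 were higher in CPF and lower in DMSO and 823 the reverse. Hnf4a, the nuclear receptor of proximal tubule and liver, read 55.9 then 182 TPM with CPF and 28.5 then 28 TPM with DMSO. Tfcp2l1, a factor of collecting duct and distal tubule, read 72.5 then 274 TPM with CPF and 66.9 then 57.7 TPM with DMSO. Median differences were 1.16 in CPF and -0.35 in DMSO. Without a shared sign none could be called.

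The promoters of genes 2-fold higher in both agents were searched for short motifs in the 250 bases before the start, on both strands, using RefSeq starts on GRCm38.p6. Of the 79 genes, 54 matched a promoter entry. A short motif of HNF4, CAAAGT, was in 13 of 54 (24.1%), against 1034 of 9670 promoters of all tested genes (10.7%) and 12.53% of all promoters in the table. It was in 0 of the 6 promoters matched to called higher genes. The CCAAT box was in 37.0% against 35.9%. The 150 bases before the start are shown for 3 carriers past 2-fold that hold the HNF4 motif there, with the motif or its reverse complement ACTTTG in capitals.
Slc22a19 (GRCm38.p6, chr19:7711311-7711460, minus strand): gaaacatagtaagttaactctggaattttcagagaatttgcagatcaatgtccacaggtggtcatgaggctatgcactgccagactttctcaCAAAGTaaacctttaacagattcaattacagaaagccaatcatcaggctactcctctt
Slc3a1 (GRCm38.p6, chr17:85028197-85028346, plus strand): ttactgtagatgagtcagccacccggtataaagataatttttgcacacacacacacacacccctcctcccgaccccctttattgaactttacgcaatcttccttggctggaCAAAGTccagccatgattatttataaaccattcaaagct
Slco1a6 (GRCm38.p6, chr6:142186150-142186299, minus strand): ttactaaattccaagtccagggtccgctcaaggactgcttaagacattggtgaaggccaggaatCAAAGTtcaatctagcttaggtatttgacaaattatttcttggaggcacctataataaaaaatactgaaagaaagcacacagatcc
The values of these 3 carriers are given above, and both E18.5 libraries were above both E16.5 libraries in each. A match of 6 letters is a description and does not show binding.

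Past the proximal tubule, the 4 lists for loop, distal tubule and collecting duct held 65 genes, of which 47 were tested. Of these 32 (68.1%, against 11.1% of all genes) were higher in both agents, 3 were lower and 12 differed in sign, and 7 of 38 with a mean of at least 5 TPM (18.4%, against 0.825%) were past 2-fold. The median difference was 2.17 in CPF and 0.36 in DMSO. In the loop, the tight junction protein Cldn16 read 2.78 then 30.4 TPM with CPF and 4.96 then 6.91 TPM with DMSO, and the water channel Aqp1, which proximal tubule shares, 40.1 then 210.2 with CPF and 26.4 then 41.1 with DMSO. Slc12a1, the target of loop diuretics, read 0.789 then 8.23 TPM with CPF and 2.08 then 1.59 TPM with DMSO and has 2 RefSeq transcripts.

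In the distal tubule Kl, the co-receptor Klotho for the hormone FGF23, read 7.14 then 168 TPM with CPF and 11.1 then 30.8 TPM with DMSO and kallikrein Klk1 read 2.79 then 59.4 TPM with CPF and 5.10 then 16.8 TPM with DMSO, both past 2-fold in both agents. The calcium channel Trpv5 read 1.47 then 14.3 TPM with CPF and 2.06 then 3.21 TPM with DMSO, while the calcium buffer Calb1 read 99.5 then 216 TPM with CPF and 173 then 144 TPM with DMSO, higher at E18.5 in CPF alone. The vitamin D receptor Vdr read 5.89 then 42.4 TPM with CPF and 3.52 then 6.74 TPM with DMSO.

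Intercalated cells, which secrete acid or base, had 11 of 14 tested members higher in both agents. The proton pump subunit Atp6v0a4 read 11.8 then 120.1 TPM with CPF and 16.2 then 24.5 TPM with DMSO, and the carbonic anhydrase Car12 22.4 then 224 with CPF and 18.6 then 43 with DMSO. The receptor Oxgr1 read 0.717 then 19.7 TPM with CPF and 1.19 then 4.59 TPM with DMSO. The list's lower member in both agents was Slc4a1, the anion exchanger that red cells also carry. It read 156 then 11.9 TPM with CPF and 35.6 then 20.6 TPM with DMSO. Embryonic globins were lower too, and the part of red cell RNA in the Slc4a1 values was not tested. Car2, with the highest mean in the list, read 237 then 217 TPM with CPF and 51.7 then 70.8 TPM with DMSO, lower in CPF and higher in DMSO. In principal cells, where Aqp2 rose, 5 of 10 tested were higher in both: Aqp3 read 21.9 then 53 TPM with CPF and 12.3 then 16.3 TPM with DMSO, and the sodium channel subunit Scnn1g read 23.1 then 80.3 TPM with CPF and 25.3 then 24.6 TPM with DMSO, without a shared sign.

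Urothelial genes had the larger median in DMSO. The list's medians were 0.37 in CPF and 1.30 in DMSO over 11 tested members. Of these, 6 were higher in both agents (11.1% of all tested genes were) and 3 lower (38.3% were). The uroplakins, which form the plaques of the bladder and pelvis surface, reached similar levels in both agents. Upk3a read 17.2 then 57.8 TPM with CPF and 21.8 then 61.6 TPM with DMSO, Upk1a 5.73 then 19.4 with CPF and 3.16 then 20.6 with DMSO, and Upk1b 15.7 then 31.8 with CPF and 10.2 then 31.4 with DMSO. The surface antigen Psca read 7.12 then 16 TPM with CPF and 1.26 then 18.8 TPM with DMSO. The E18.5 libraries lay above the E16.5 libraries in each of these 4 genes. The basal keratins Krt5 and Krt15, which other surface epithelia also make, read 36.3 then 0.910 TPM with CPF and 0.216 then 0.0834 TPM with DMSO, and 122 then 1.10 with CPF and 1.81 then 1.06 with DMSO, and so were high in the E16.5 CPF library alone.

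**Figure D4:**
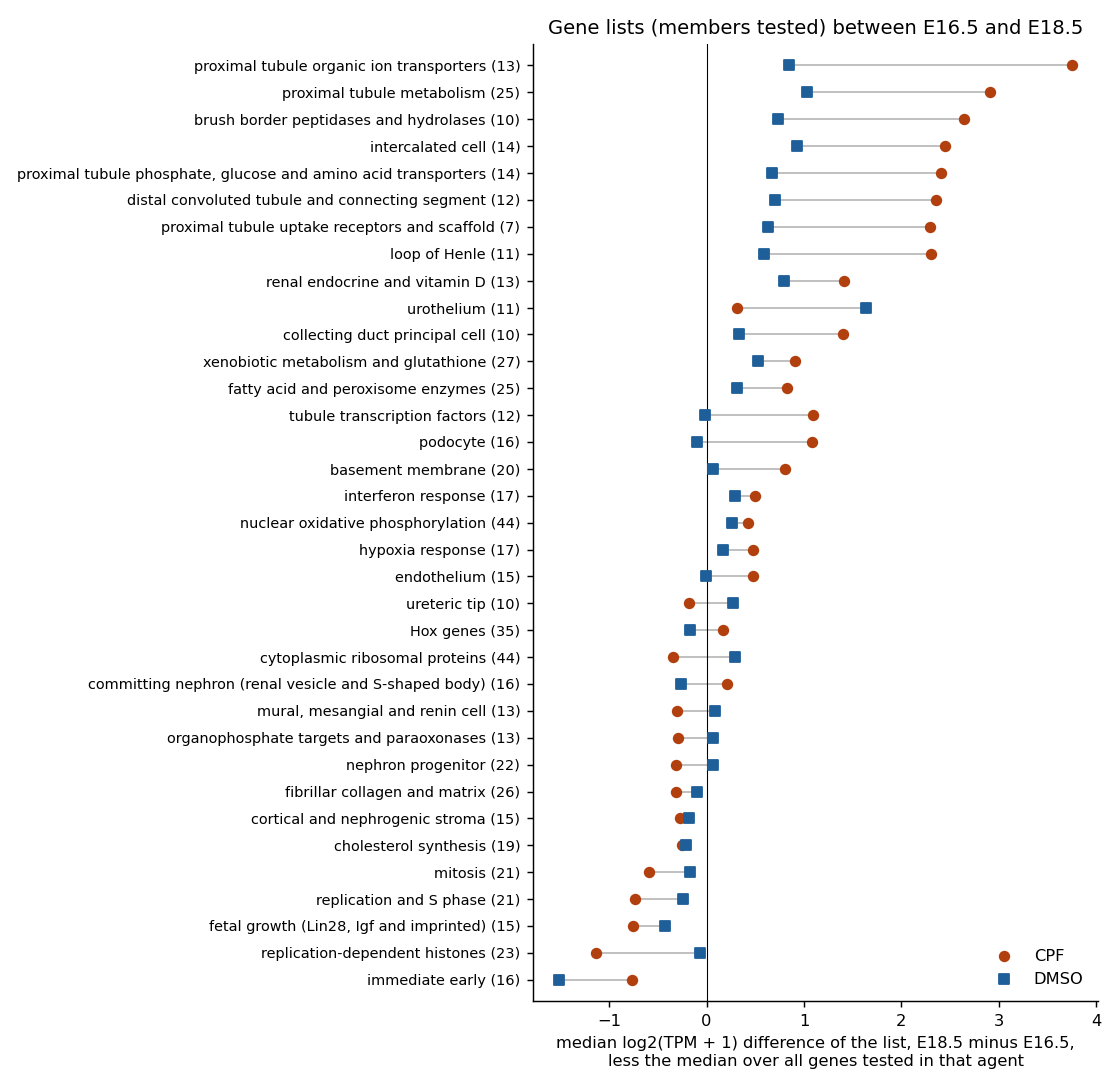
Median difference of E18.5 minus E16.5 of each gene list (members tested in brackets), less the median over all tested genes in the same agent, for CPF (circles) and DMSO (squares), on the log2(TPM + 1) scale. Proximal and distal tubule lists lie to the right in both agents with CPF further out, urothelium has the larger value in DMSO, and cell cycle, fetal growth and immediate early lists lie to the left.

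Podocyte genes were divided between agents. Of 16 tested, 5 were higher in both (11.1% of all tested genes were) and 11 differed in sign. The medians were 1.14 in CPF and -0.43 in DMSO. Of all 13677 tested genes, 5926 were higher in CPF and lower in DMSO and 823 the reverse. Nphs1, nephrin of the slit diaphragm, read 7.42 then 25.9 TPM with CPF and 9.09 then 3.58 TPM with DMSO. Podxl, the charged coat protein of the foot processes, read 124 then 281 TPM with CPF and 74.1 then 43.2 TPM with DMSO. The collagen chains of the mature glomerular membrane, Col4a3 and Col4a4, shared the sign, at 1.84 then 35.2 TPM with CPF and 3.96 then 9.32 TPM with DMSO, and 2.07 then 34.7 with CPF and 6.22 then 11.6 with DMSO, whereas Col4a1 of the fetal membrane read 528 then 1113 TPM with CPF and 404 then 357 TPM with DMSO. Of these only Col4a3 was past 2-fold in both agents, and limma called none.

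Early nephron genes also differed in sign. Of 16 tested genes of the renal vesicle and S-shaped body, 12 had opposite signs, 4 were lower in both and 0 were higher in both. Such a split was common. Of all 13677 tested genes, 5926 were higher in CPF and lower in DMSO and 823 the reverse, and 38.3% were lower in both. Wnt4, the signal that turns progenitors into epithelium, read 36.2 then 41.7 TPM with CPF and 21.4 then 13.8 TPM with DMSO, and Lhx1, a factor of the vesicle, 21.6 then 34.9 with CPF and 18.7 then 11.3 with DMSO. Pax8 and Ccnd1 went the same way as these. Relative to all genes the list's medians were 0.21 in CPF and -0.26 in DMSO.

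The progenitor list did not move as a whole: 10 of 22 tested were lower in both agents (38.3% of all tested genes were), 4 were higher, and the medians relative to all genes were -0.32 in CPF and 0.07 in DMSO. Six2 itself read 19.1 then 8.38 TPM with CPF and 41.6 then 35.1 TPM with DMSO (-0.67 ± 0.36, limma adjusted p 0.859). Gdnf, the branching signal that progenitors send to the ureteric tip, read 17.3 then 14.8 TPM with CPF and 28.5 then 30.7 TPM with DMSO. Osr1, a factor of early intermediate mesoderm, read 26.9 then 4.99 TPM with CPF and 24.5 then 12.4 TPM with DMSO, with both E18.5 libraries below both E16.5 libraries. Itga8, the integrin that progenitors use toward the ureteric bud, read 99.2 then 188 TPM with CPF and 106 then 133 TPM with DMSO, the reverse order. Of 15 tested stromal genes, 10 were lower in both agents and 0 higher. Foxd1, the factor that marks cortical stroma, read 14.8 then 9.04 TPM with CPF and 29.3 then 22.1 TPM with DMSO, and Tbx18 of the stroma around the ureter read 9.0 then 4.27 TPM with CPF and 8.18 then 1.36 TPM with DMSO.

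Cell cycle genes were lower at E18.5 in both agents, without a call. Of 42 tested replication and mitosis genes, 40 (95.2%) were lower in both, against 38.3% of all genes, and 0 were 2-fold lower. The median difference was -0.56 in CPF and -0.55 in DMSO. It was -0.62 and -0.21 relative to all genes, and -0.58 and -0.31 with coding scaling, so on both of these scales it was further from 0 in CPF. Top2a, the topoisomerase that separates chromosomes, read 536 then 384 TPM with CPF and 538 then 357 TPM with DMSO, and the proliferation antigen Mki67 408 then 306 with CPF and 308 then 231 with DMSO. The replication clamp Pcna read 248 then 124 TPM with CPF and 273 then 183 TPM with DMSO, and the helicase subunit Mcm6 343 then 237 with CPF and 285 then 213 with DMSO. In each of these 4 genes both E18.5 libraries were below both E16.5 libraries, as they were in 22.8% of all tested genes. The members not lower in both were the cyclin Ccnb2, at 196 then 135 TPM with CPF and 104 then 113 TPM with DMSO, and the repair enzyme Ung, at 0.801 then 0.490 TPM with CPF and 0.630 then 0.790 TPM with DMSO.

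CCAAT boxes stood in 14 of 18 mitosis promoters (77.8%) and 13 of 16 replication promoters (81.3%), against 35.9% of tested genes. The cell cycle homology region, TTTGAA, was in 7 of 18 mitosis promoters (38.9%) and 2 of 16 replication promoters, against 10.6% of tested genes. Shown are the 150 bases before 2 mitotic genes, the B-type cyclin Ccnb1 and the anaphase activator Cdc20, with CCAAT and TTTGAA, on either strand, in capitals.
Ccnb1 (GRCm38.p6, chr13:100786487-100786636, minus strand): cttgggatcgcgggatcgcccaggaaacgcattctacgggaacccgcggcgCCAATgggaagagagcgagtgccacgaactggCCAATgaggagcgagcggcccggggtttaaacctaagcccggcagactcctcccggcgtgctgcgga
Cdc20 (GRCm38.p6, chr4:118437344-118437493, minus strand): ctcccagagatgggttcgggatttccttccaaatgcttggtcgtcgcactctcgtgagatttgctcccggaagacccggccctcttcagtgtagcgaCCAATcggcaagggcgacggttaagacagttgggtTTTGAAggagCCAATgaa
Ccnb1 read 165 then 110.1 TPM with CPF and 132 then 92.3 TPM with DMSO, and Cdc20 203 then 127 with CPF and 131 then 110.2 with DMSO.

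Replication-dependent histone genes, whose mRNA is made in S phase, were lower in CPF (median -1.08 over 23 tested) and mixed in DMSO (median -0.40). Of the 23, 14 were lower in both (38.3% of all tested genes were), 1 was higher and 8 differed in sign. Hist1h4d, with the highest mean, read 5505 then 3046 TPM with CPF and 4576 then 3471 TPM with DMSO, and Hist1h4c 5316 then 2412 with CPF and 6541 then 2117 with DMSO. Hist1h2bg read 1020 then 892 TPM with CPF and 301 then 1362 TPM with DMSO, lower in CPF and higher in DMSO. Histone mRNA of this class lacks a poly(A) tail, how RNA was captured is not stated in the labels, and the copies are near identical, so reads may be shared among them.

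Immediate early genes, which cells switch on within minutes of a stimulus and also during tissue handling, were lower at E18.5. Of 16 tested, 14 were lower in both agents (38.3% of all tested genes were) and 0 were higher. With a mean of at least 5 TPM, 7 of 15 were 2-fold lower in both, against 0.742% of all such genes. The list's medians were -0.70 in CPF and -1.85 in DMSO, or -0.76 in CPF and -1.52 in DMSO relative to all genes, further from 0 in DMSO. Fos, a subunit of the AP-1 factor, read 116 then 21.4 TPM with CPF and 59.2 then 1.77 TPM with DMSO (limma adjusted p 0.234), its partner gene Junb 55.1 then 19.8 with CPF and 21.8 then 4.39 with DMSO and Egr1 37.3 then 15.1 with CPF and 27.2 then 5.47 with DMSO. At E12.5 and E14.5, Fos read 121 then 81.4 TPM with CPF and 5.54 then 4.24 TPM with DMSO, so in DMSO the E16.5 library was the one that stood high. The labels do not state the time from dissection to lysis.

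The core of the cAMP response element, TGACG, was in 8 of 14 immediate early promoters (57.1%) against 25.9% of tested genes, and the Fos promoter is shown with it in capitals.
Fos (GRCm38.p6, chr12:85473740-85473889, plus strand): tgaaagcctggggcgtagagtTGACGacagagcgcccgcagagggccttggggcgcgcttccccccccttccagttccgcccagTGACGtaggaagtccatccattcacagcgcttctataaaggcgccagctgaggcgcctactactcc

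Of the 5 genes that fell, 3 are genes of striated muscle. Actc1, the actin of heart and fetal skeletal muscle, went from 93.4 to 9.36 TPM in CPF and from 24.2 to 0.921 TPM in DMSO (-3.45 ± 0.36, limma adjusted p 0.00273). Myl4, an embryonic myosin light chain, went from 25 to 2.15 TPM in CPF and from 7.54 to 0.555 TPM in DMSO (-2.75 ± 0.39, adjusted p 0.0180), and Myh3, the embryonic myosin heavy chain, from 18 to 2.81 TPM in CPF and from 11.7 to 0.479 TPM in DMSO (-2.71 ± 0.41, adjusted p 0.0307). Both E18.5 libraries were below both E16.5 libraries in all 3, as in 22.8% of all tested genes. The 3 were picked by their differences between these same libraries, so this is not added support. Of 12 tested skeletal muscle markers, 10 were lower in both agents (38.3% of all tested genes were). With a mean of at least 5 TPM, 4 of 4 were 2-fold lower in both, against 0.742% of all such genes. The summed level of the muscle markers was 201 then 26.0 TPM with CPF and 88.7 then 9.11 TPM with DMSO at E16.5 and E18.5. Myog, which only muscle precursors make, read 6.91 then 0 TPM with CPF and 3.92 then 0.0821 TPM with DMSO. Kidney itself has no striated muscle, and the part of neighbouring muscle in these values was not tested. On GRCm38, Actc1 lies on chromosome 2 at 114047282 to 114052875, Myl4 on chromosome 11 at 104546017 to 104587215 and Myh3 on chromosome 11 at 67078273 to 67102291.

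Embryonic red cell genes were lower as well, without a call. The embryonic globin Hbb-y read 521 then 4.07 TPM with CPF and 461 then 16.2 TPM with DMSO (limma adjusted p 0.228), and Hba-x 84.6 then 0.525 with CPF and 59.6 then 11 with DMSO. These globins belong to primitive red cells, whose share of the blood declines during gestation. Of 12 tested erythroid markers 10 were lower in both agents (38.3% of all tested genes were). The list summed to 1263 then 266 TPM with CPF and 735 then 177 TPM with DMSO. Adult globins were listed at 0 or below 0.44 TPM. As the assignment of reads is not stated, these are listed values only and do not show that adult-type red cell RNA was absent. Other lower genes past 2-fold were Car3, a carbonic anhydrase of muscle and fat, at 41.5 then 4.94 TPM with CPF and 11.2 then 1.39 TPM with DMSO, the matrix proteoglycan Lum at 262 then 55.1 TPM with CPF and 96.5 then 33.6 TPM with DMSO, and the X-linked kinase Nrk at 65.2 then 14.7 TPM with CPF and 36 then 11.4 TPM with DMSO. Ctrb1, a pancreatic protease, read 913 then 0.356 TPM with CPF and 2.06 then 0.0689 TPM with DMSO and is itself on the list of pancreas and gut markers, where it gave 913 of the 2332 TPM of the E16.5 CPF library.

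Many of the other lower genes lie in 1 imprinted locus. Between Dlk1 and Dio3 on chromosome 12 (GRCm38, 109452485 to 110281097) the table lists 77 genes, and 56 were tested. The locus was chosen after its values were seen, so its counts are a description without a test. Of the 56, 41 were lower in both agents (38.3% of all tested genes were) and 0 were higher in both (11.1% were). The locus held 16 of the 71 genes 2-fold lower in both agents. These were 16 of its 36 genes that averaged 5 TPM or more, against 0.742% of all genes at that level. Over the 56, the median difference was -2.16 in CPF and -0.99 in DMSO. Meg3, Rian and Mirg are long noncoding RNAs made from the maternal chromosome, and they host small nucleolar RNAs and microRNAs in their introns. Meg3 read 32.2 then 6.38 TPM with CPF and 19.5 then 5.84 TPM with DMSO (limma -1.88 ± 0.36, adjusted p 0.0742), Rian 236 then 46.4 with CPF and 131 then 57.2 with DMSO and Mirg 28.2 then 4.45 with CPF and 14.6 then 7.42 with DMSO. Rtl1, which is made from the paternal chromosome, read 8.18 then 1.14 TPM with CPF and 3.90 then 1.47 TPM with DMSO. Dlk1 and Dio3 at the ends were below the filter.

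AF357425, a small nucleolar RNA within Rian at 109636012 to 109636080, fell (-2.46 ± 0.33, limma adjusted p 0.0161) and read 86.9 then 18.4 TPM with CPF and 59.4 then 8.03 TPM with DMSO. Its neighbour AF357426 read 96.9 then 14.2 TPM with CPF and 57.1 then 16.54 TPM with DMSO (adjusted p 0.0510). Reads of a host RNA can count for a small gene inside it, so these are values of the locus and not independent members. Elsewhere in the genome 131 of 558 tested microRNA genes were lower in both agents, with a median of -0.13, against 31 of 45 in the locus.

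**Figure D5:**
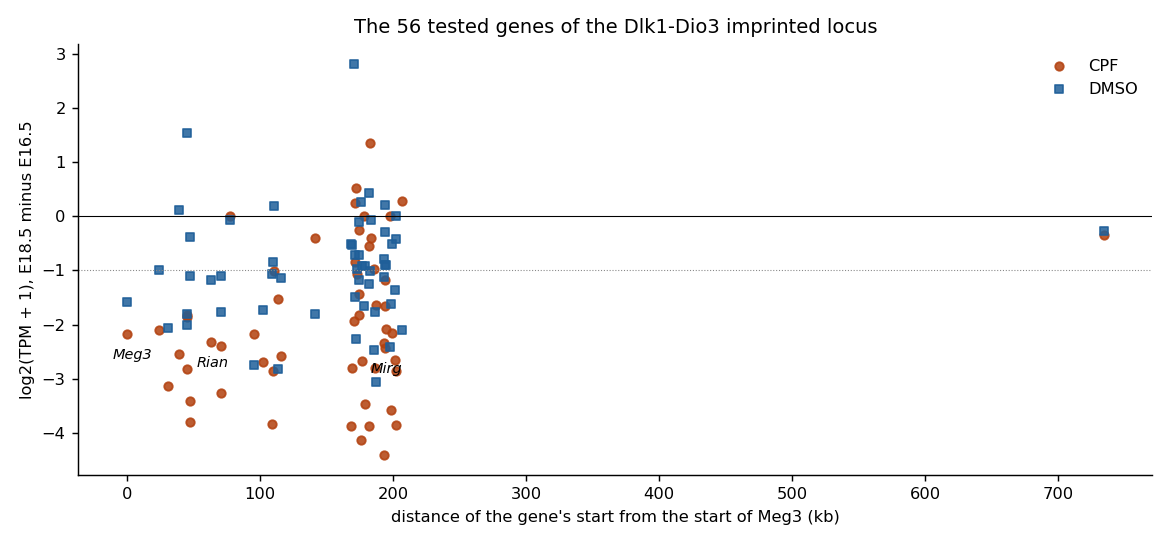
Difference of E18.5 minus E16.5 on the log2(TPM + 1) scale for the 56 tested genes between Dlk1 and Dio3, by the distance of the gene's start from that of Meg3 in kb, for CPF (circles) and DMSO (squares). Most points lie below 0, with medians of -2.16 in CPF and -0.99 in DMSO.

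Of the microRNA genes of the locus, 9 were 2-fold lower in both agents: Mir673, Mir540, Mir3070b, Mir341, Mir1188, Mir539, Mir382, Mir496a and Mir541. Mir382 had the highest level, 46.4 then 8.35 with CPF and 20.6 then 8.90 with DMSO, and Mir1188 read 27.2 then 4.39 with CPF and 19.8 then 5.10 with DMSO. The values measure RNA over the hairpin genes and not the mature microRNAs, which a library of long RNA does not count. RefSeq on GRCm38.p6 gave 17 mature sequences for the 9 genes, and all 17 seeds (bases 2 to 8) differ, so these 9 genes share no seed. The arms of 4 of them are shown with the seed in capitals, to let the seeds be compared.
mmu-miR-382-5p: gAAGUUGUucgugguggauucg
mmu-miR-382-3p: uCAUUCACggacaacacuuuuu
mmu-miR-541-5p: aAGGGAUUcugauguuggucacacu
mmu-miR-541-3p: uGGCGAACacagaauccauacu
mmu-miR-1188-5p: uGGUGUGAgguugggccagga
mmu-miR-1188-3p: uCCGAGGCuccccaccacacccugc
mmu-miR-496a-5p: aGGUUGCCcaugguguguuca
mmu-miR-496a-3p: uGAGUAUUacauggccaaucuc
Mir7003, the 1 called microRNA gene, read 7.47 and 4.14 TPM at E16.5 in CPF and DMSO and was listed at 0 in both E18.5 libraries. It lies outside the locus and rests on few reads, since 1 read in 1 kb was worth 0.0609 to 0.105 TPM in these libraries and a hairpin is far shorter than 1 kb.

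The list of fetal growth genes, from which any genes of the locus were not taken out, had smaller median differences than the locus. Of 15 tested, 12 were lower in both agents (38.3% of all tested genes were) and 0 were higher. The medians were -0.70 in CPF and -0.76 in DMSO. Lin28b, which blocks the maturation of let-7 microRNAs, read 4.47 then 0.484 TPM with CPF and 2.68 then 0.944 TPM with DMSO. The RNA-binding protein Igf2bp3 read 94 then 56.7 TPM with CPF and 63.7 then 29 TPM with DMSO, and the chromatin protein Hmga2, past 2-fold in both agents, 72.6 then 26.2 with CPF and 88.3 then 34.7 with DMSO. Peg3, a paternally expressed factor, read 330.5 then 224 TPM with CPF and 285 then 209.6 TPM with DMSO. In these 4 genes both E18.5 libraries were below both E16.5 libraries, as in 22.8% of all tested genes, and Hmga2 was picked after its values were seen. Igf2 has several RefSeq transcripts and was listed at 1.08 to 3.32 TPM.

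To ask whether a change belonged to the last interval, the E18.5 minus E16.5 difference was set against E14.5 minus E12.5 in the same limma fit. The 2 steps share no library. Of 13677 genes, 15 differed (0.11%), 1 higher in the last step and 14 lower, and 795 had an unadjusted p under 0.05. Kap, tested only through its E18.5 libraries, was the higher one, with a difference of 6.36 ± 0.70 (adjusted p 0.0102), against 0.20 in the first interval. Of the 14, the genes with the smallest p among those with a mean of at least 10 TPM were Akr1b7, Mt2, Rgn, Lum and Serpinf2. Mir7003, with a mean under that, had a difference of -5.11 ± 0.63 (limma adjusted p 0.0113). Akr1b7, an aldo-keto reductase that adrenal cortex and renin cells make, had a difference of 3.27 in the first step and -1.68 in the last (difference -4.95 ± 0.57, adjusted p 0.0108). Mt2, a metallothionein, had 3.58 and then -0.68 (difference -4.26 ± 0.54, adjusted p 0.0114). Akr1b7, Mt2, Rgn, Lum and Serpinf2 were higher at E14.5 than at E12.5 in both agents. Serpinf2 was also higher at E18.5 than at E16.5 (0.41), by less than in the first step (4.00). Akr1b7 is also on the list of adrenal markers, whose sum was 816 then 184 TPM with CPF and 122 then 76.8 TPM with DMSO at E16.5 and E18.5. Leaving out single libraries changed these counts widely: without the E16.5 CPF library 8 were lower, without the E18.5 CPF library 2, without the E16.5 DMSO library 160 and without the E18.5 DMSO library 92.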

How the data were processed

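RNA of embryonic kidney was sequenced, 8 libraries in all, from 2 µg of RNA each per the labels' protocols. The submitters' processing notes name Trimmomatic, STAR and mm10, without versions, and the assignment of reads is not stated there or in the labels. The authors deposited TPM for each RefSeq transcript. TPM keeps no depth, and from the steps between low values 1 read in 1 kb was worth 0.0609 to 0.105 TPM in the 4 libraries. Transcripts were summed per symbol (24151 genes, 52 symbols restored by RefSeq identifier). Genes with at least 1 TPM in 2 of 8 libraries were fitted with limma 3.58.1 (R 4.3.3) on log2(TPM + 1), trend and robust moderation, stage and agent as terms, 3 residual degrees of freedom, Benjamini-Hochberg over 13677 genes. Differences within an agent have 1 library per stage and carry no test. On simulated data of the E18.5 minus E16.5 contrast, 86% of genes raised by 4 log2 units and 38% raised by 2 were called. Of those lowered by 2, 26% were called, and of those raised by 1, 0%, with 0 false calls among 13477 unchanged genes. The noise was drawn for each gene alone around the fitted stage and agent model, without shifts shared by a library. The simulation therefore cannot show how often shifts of a whole library give false calls.

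The members and gene lists were chosen with earlier results of these data known. Named by rule were the 12 genes each way with the largest smaller difference of the 2 agents (mean of at least 10 TPM), set kidney genes, and the called or highest members of each list; other members named were picked after their values were seen. Some genes in the counts are not reported here by name. Promoters, microRNAs and coordinates are from RefSeq on GRCm38.p6, the assembly mm10 names. Alternatives were other scalings, filters, pseudocounts, stages and models, and leaving out each library.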

Additional observations from a re-analysis of the deposited data

Results flagged for a closer look

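Of 126 tested genes that the naming rule gave, 27 had opposite signs of the E18.5 minus E16.5 difference in CPF and DMSO, under the deposited scale and with coding scaling. The 11 of them described above are given here. With 1 library per stage and agent the difference was not tested. The CPF difference less the DMSO difference was 2.81 for Nphs1, 2.62 for Slc12a1, 1.93 for Podxl, 1.46 for Abcg2, 1.37 for Calb1, 1.35 for Lhx1 and Pax8, 0.80 for Wnt4 and 0.71 for Ccnd1, which were higher at E18.5 in CPF and lower in DMSO. It was -0.57 for Car2 and -0.31 for Gdnf, which were lower in CPF and higher in DMSO.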

How the results depend on the processing

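The main limits are 1 library per stage and agent, and a spread that comes from all 4 stages. The labels give no replicate numbers, so no replicate block was fitted, and the agent was the pairing term. Calls at E18.5 against E16.5 (8 higher and 5 lower) became 205 and 178 with the 4 libraries alone (1 residual degree of freedom), 1 and 0 without the agent term, 1 and 1 with quantile normalization and with coding scaling, 0 and 0 without a filter (1083 at an unadjusted p under 0.05), 26 and 29 with a filter of 5 TPM, 13 and 30 with a pseudocount of 0.1, 2 and 1 with a pseudocount of 5, 2 and 1 without trend and robust moderation, 15 and 12 with single-transcript genes, 148 and 137 without E14.5, and 17 and 27 without E12.5. Leaving out 1 of the 4 libraries gave 1 to 308 higher and 1 to 100 lower. All 13 genes kept their call with the 4 libraries alone, single-transcript genes, and without E14.5 or E12.5; the causes of the other changes were not tested.

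The contrast of the last with the first step (1 higher, 14 lower) gave 0 and 0 without the agent term, with either scaling, without a filter and with a pseudocount of 5, 5 and 45 with a filter of 5 TPM, 2 and 37 with a pseudocount of 0.1, and 1 lower without trend and robust moderation. Leaving out libraries gave 1 to 71 higher and 2 to 160 lower. Genes 2-fold different in both agents (79 and 71) were 134 higher with quantile normalization, 125 higher with coding scaling, 109 lower with a pseudocount of 0.1, 39 and 34 with a pseudocount of 5, 180 and 326 at 1.5-fold, 13 and 14 at 4-fold, and 44 and 27 with a mean of at least 20 TPM.

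Relative to all genes, the skeletal muscle median (-1.99) was -2.73 with a pseudocount of 0.1 and -0.98 with 5, and -2.54 to -1.31 without single libraries. The fetal growth median (-0.62) was -0.84 to -0.38 and the progenitor median (-0.06) -0.35 to 0.21 without single libraries. The gonad marker sum (-0.17) was -0.062 with coding scaling. Of named gene values, 617 kept direction and call, 102 gained and 44 lost a call, and 16 changed sign. Gdnf (-0.053) was 0.023 with quantile normalization and 0.058 with coding scaling, and Lhx1 (-0.0062) 0.10 with each scaling and 0.022 with a pseudocount of 5. Without single libraries the ranges were -0.17 to 0.068 for Gdnf, -0.89 to 0.88 for Lhx1, -1.01 to 0.61 for Wnt4, -1.06 to 1.59 for Nphs1, -0.037 to 1.70 for Hnf4a, -0.24 to 0.56 for Car2 and -3.72 to 0.12 for Alb.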

Other observations

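Of 44 tested nuclear genes of oxidative phosphorylation, 20 were higher in both agents, or 32 with coding scaling. The list's medians relative to all genes were 0.43 in CPF and 0.26 in DMSO. Of 25 fatty acid and peroxisome enzymes, 11 were higher in both, or 18 with coding scaling. Of all 13677 tested genes, 11.1% were higher in both, or 2861 genes with coding scaling. Acadm, the medium-chain acyl-CoA dehydrogenase, read 105 then 465 TPM with CPF and 85.1 then 107 TPM with DMSO at E16.5 and E18.5, and the fatty acid carrier Slc27a2 26.1 then 339 with CPF and 23.3 then 51.9 with DMSO. Cytoplasmic ribosomal protein genes had medians relative to all genes of -0.34 in CPF and 0.29 in DMSO. Of 27 tested genes of xenobiotic and glutathione metabolism, 13 were higher in both agents (11.1% of all tested genes were). Another 4 were lower in both and 10 differed in sign. Of 23 with a mean of at least 5 TPM, 4 were 2-fold higher in both agents, against 0.825% of all such genes. Gpx1, with the highest mean in the list, read 628 then 427 TPM with CPF and 274 then 253 TPM with DMSO, lower in both. Gpx3, a secreted glutathione peroxidase made in proximal tubule, read 34.5 then 741 TPM with CPF and 26.4 then 61 TPM with DMSO, and the glutathione transferase Gsta2 7.54 then 181 with CPF and 16.6 then 33.7 with DMSO. Of 13 tested organophosphate targets and paraoxonases, 8 were lower in both, as were 38.3% of all tested genes. Relative to the medians of all genes, 5 lay above and 6 below in both agents. Butyrylcholinesterase, Bche, which binds organophosphates, read 28.4 then 10 TPM with CPF and 11.1 then 7.16 TPM with DMSO, and Pon2 45.7 then 47.7 with CPF and 22.6 then 20.9 with DMSO. Acetylcholinesterase, Ache, which has several transcripts, was listed at 0 in all 4 libraries.

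Of 17 interferon-stimulated genes tested, 7 were higher in both agents (11.1% of all tested genes were). With coding scaling 11 were, against 2861 of all 13677 tested genes. On the deposited scale a further 2 were lower in both and 8 differed in sign. Of the 8 with a mean of at least 5 TPM, 0 were past 2-fold. B2m, with the highest mean, read 298 then 340 TPM with CPF and 146 then 160 TPM with DMSO. Ifitm3, next in mean, read 82.1 then 124 TPM with CPF and 48.1 then 46.9 TPM with DMSO, without a shared sign. Ifit3 read 0.811 then 13.5 TPM with CPF and 0.506 then 2.16 TPM with DMSO, and Rtp4 0.361 then 8.44 with CPF and 0.428 then 3.20 with DMSO. Both genes were past 2-fold in each agent, with a mean under 5 TPM. Ifi44, which is not on the list and was picked after its values were seen, read 0.977 then 21.8 TPM with CPF and 0.580 then 5.73 TPM with DMSO and was past 2-fold in both agents. In the hypoxia list, 7 of 17 were higher in both (11.1% of all tested genes were). Ndrg1, a stress-induced gene, read 80.6 then 574 TPM with CPF and 33.4 then 79.6 TPM with DMSO. Of 35 tested Hox genes, 25 differed in sign and 10 were lower in both, where 38.3% of all tested genes were lower in both. Of all 13677 tested genes, 5926 were higher in CPF and lower in DMSO and 823 the reverse. The list's medians relative to all genes were 0.17 in CPF and -0.17 in DMSO.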
